A study of Mus musculus with 23 samples.

Results

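Hcar2, Gpr84 and Fpr1 are 3 receptors of myeloid cells among the 770 genes of the nCounter Mouse Neuroinflammation panel. They were chosen by name from the panel because their cortical counts stood near background in mice without lipopolysaccharide (LPS) and rose in LPS-injected mice, so their levels under LPS are given as a description, without a test. Fpr1 only partly matched that description. It stayed close to background in LPS-injected mice and lay under background in 1 of them.

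The 3 genes encode G protein-coupled receptors that couple to inhibitory G proteins and are found on cells that include neutrophils, monocytes, macrophages and microglia. Hcar2 encodes the receptor of the ketone body beta-hydroxybutyrate, of butyrate made by gut bacteria, and of niacin. Its activation dampens inflammatory signalling in macrophages and microglia. Gpr84 encodes a receptor activated by medium-chain fatty acids that is scarce in resting microglia and induced by inflammatory stimuli. Fpr1 encodes the receptor of N-formyl peptides, which bacteria and damaged mitochondria release and toward which neutrophils and monocytes migrate.

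Cortical RNA came from 23 wild-type (WT) mice, strain B6FVB, of the CamKIIα-TTA/tetO-APP102 x FVB line, at 12 wk of age. They served as WT animals of a line in which dox chow switches a transgene off. There were 8 Untreated mice (6 males, 2 females), 4 Dox mice (1 male, 3 females), 5 LPS mice (3 males, 2 females) and 6 Dox+LPS mice (3 males, 3 females). The Dox and Dox+LPS mice ate chow with 100 mg/kg doxycycline (dox), given from postnatal day 3 until the age of 6 wk, and then had 6 wk without it. The LPS and Dox+LPS mice were injected i.p. with 2 mg/kg LPS 18 h before harvest, and the study's methods state that the other mice were injected with saline. The mice were perfused with PBS before harvest. Because whole tissue was assayed, a change in the number of cells of a type and a change in RNA per cell cannot be told apart.

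Panel totals ranged from 645971 to 804471 counts per mouse. A count was called above background when it was larger than the mean of that mouse's 8 negative control probes plus 2 SD, a limit of 15.4 to 29.8 counts. Normalized counts are counts scaled by the upper quartile to the mean library. The 11 LPS-injected mice were read at 1 stage position and the 12 saline-injected mice at another. These 2 positions are taken here as 2 cartridges. Effects of LPS and of the cartridge therefore cannot be told apart. On both cartridges the later lanes held the dox-treated mice. As markers of cortical tissue, all 7 measured neuronal genes were above background in every mouse. LPS replicate 3 stood apart in its group, with 5449 normalized counts of the acute-phase gene Lcn2 against 10667 to 11938 in the other 4 LPS mice, and Untreated replicate 3 had 733 against 13.6 to 128 in its group.

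RefSeq places Hcar2 on mouse chromosome 5, Gpr84 on chromosome 15 and Fpr1 on chromosome 17, and its promoter table held 2 of the 3 members. The 250 bases before the transcription start of Gpr84 (chr15:103310439-103310688, minus strand) and Fpr1 (chr17:17883940-17884189, minus strand), from RefSeq on GRCm38.p6, are shown because the genes differed in how far their counts rose. Capitals mark the motif matches, and both run 5′ to 3′ toward the start.
Gpr84: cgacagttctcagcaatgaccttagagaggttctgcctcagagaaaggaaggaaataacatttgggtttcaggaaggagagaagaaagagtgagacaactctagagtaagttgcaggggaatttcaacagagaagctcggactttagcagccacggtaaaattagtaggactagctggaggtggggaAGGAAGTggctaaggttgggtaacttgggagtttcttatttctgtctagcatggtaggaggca
Fpr1: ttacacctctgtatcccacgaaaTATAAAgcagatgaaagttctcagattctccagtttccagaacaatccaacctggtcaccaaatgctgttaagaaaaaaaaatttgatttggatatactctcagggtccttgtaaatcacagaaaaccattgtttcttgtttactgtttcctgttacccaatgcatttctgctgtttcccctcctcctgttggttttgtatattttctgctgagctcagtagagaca

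Both strands of these 2 stretches were searched for 6 motifs. AGGAAGT, the core bound by the myeloid factor PU.1, occurred once upstream of Gpr84, from 63 to 57 bases before its start, and did not occur in the Fpr1 stretch. It was found in 7.69% of 32851 promoters of the same length. TATAAA occurred once upstream of Fpr1, from 227 to 222 bases before the start, and in 12.4% of all promoters. The NF-kB consensus, the AP-1 core TGANTCA, the C/EBP core TTGCNNAA and the interferon-stimulated response element had 0 matches in either stretch and occurred in 7.25%, 6.75%, 9.56% and 2.98% of all promoters. The GC content was 46% for Gpr84 and 38.4% for Fpr1, against a median of 52.4%. No match overlapped another.

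Hcar2, the receptor of ketone bodies and butyrate, was under background in all 12 saline-injected mice and above it in all 11 LPS-injected mice. In Untreated mice its normalized counts ran from 6.08 to 13.8 with a median of 10.7. The 4 Dox mice had 7.91, 6.40, 6.18 and 11.7. The level of both groups was that of the negative control probes, whose mean was 8.5 to 11.9 counts per mouse.

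After LPS, Hcar2 stood at 74.4, 73.1, 48.1, 57.3 and 76.4 normalized counts in LPS replicates 1 to 5. Dox+LPS mice had a lowest value of 65.5, a median of 81.6 and a highest of 92.5. Neither LPS-injected group overlapped with its saline-injected group. LPS mice lay wholly above Untreated mice for 13.6% of the panel, and Dox+LPS mice above Dox mice for 18.6%. LPS replicate 3 was the lowest of the 11. The mean of LPS mice was 65.9 ± 12.5 (SD, n = 5), at least 3.27-fold the background of Untreated mice. For Dox+LPS mice it was 80.5 ± 9.53 (SD, n = 6), at least 3.65-fold the background of Dox mice. Over mice the SD of these limits was 0.62 and 0.43. They are limits because the saline-injected level was not measurable, so each saline-injected mouse entered at its background.

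Gpr84, the receptor of medium-chain fatty acids, was faintly measurable before LPS. It exceeded background in 4 of 8 Untreated mice, with a lowest normalized count of 8.03, a median of 18.8 and a highest of 27.2. In the 4 Dox mice it was under background at 14.7, 20.3, 18.5 and 16.0. At a stricter background of the mean plus 3 SD, 1 of the 12 saline-injected mice was above it.

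In LPS replicates 1 to 5, Gpr84 reached 119, 91.2, 61.7, 84.1 and 139.7 normalized counts. In Dox+LPS mice the lowest, median and highest were 97.7, 119.6 and 169. Neither LPS-injected group overlapped with its saline-injected group, as for 13.6% (LPS) and 18.6% (Dox+LPS) of the panel. LPS replicate 3 was again the lowest of the 11. Means were 99.2 ± 30.6 (SD, n = 5) in LPS mice and 125 ± 26.6 (SD, n = 6) in Dox+LPS mice. These were at least 4.46-fold the level of Untreated mice and at least 5.68-fold that of Dox mice, where mice under background entered at background. The SD of the limits over mice was 1.38 and 1.21.

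Fpr1, the receptor of N-formyl peptides, was under background in all 12 saline-injected mice. Its normalized counts were 4.59 to 16.5 in Untreated mice (median 10.1) and 12.4, 13.9, 12.4 and 9.59 in the 4 Dox mice. LPS replicates 1 to 5 had 18.9, 23.7, 22.0, 7.65 and 36.01. Dox+LPS mice had a lowest value of 18.4, a median of 29.0 and a highest of 65.5. The LPS group overlapped with the Untreated group through replicate 4. Every Dox+LPS mouse lay above every Dox mouse, as for 18.6% of the panel.

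These are small numbers of molecules. LPS replicate 4 held 8 Fpr1 counts (exact Poisson 95% interval 3.45 to 15.8, counting error only) against a background of 17.7, and Dox+LPS replicate 1 held 63 (48.4 to 80.6) against 26.5. The mean of LPS mice was 21.6 ± 10.2 (SD, n = 5), which was 1.08 times the background of Untreated mice with an SD of 0.51 over mice. Without LPS replicate 5 it was 0.90 times, so no lower limit above 1 was reached. Dox+LPS mice had 32.6 ± 16.9 (SD, n = 6), at least 1.48-fold the background of Dox mice with an SD of 0.77. Without Dox+LPS replicate 1 this limit was 1.18, and with the stricter background of the mean plus 3 SD it was 1.16. At the stricter background, 1 of 5 LPS mice and 3 of 6 Dox+LPS mice were above it. Fpr1 belongs to a family of related receptor genes, and whether its probe reads Fpr1 alone was not tested.

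**Figure D1:**
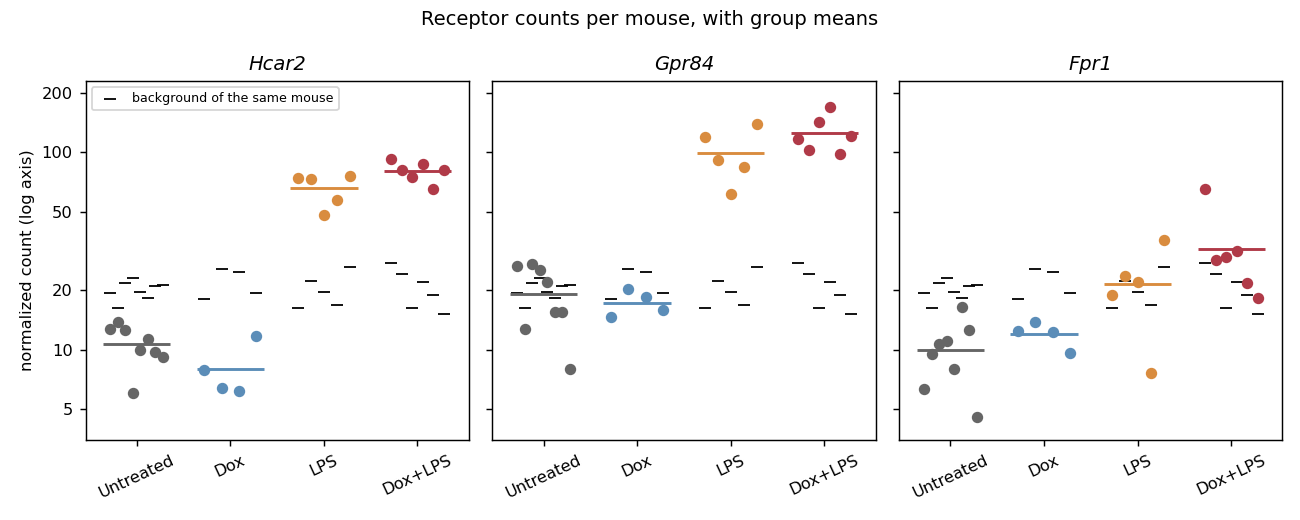
Normalized count on a log axis of Hcar2, Gpr84 and Fpr1 in each of the 23 mice by group (points), with the group mean (coloured line) and the background of the same mouse (black dash). Hcar2 and Gpr84 of all 11 LPS-injected mice sit above background, and each LPS-injected group sits above its saline-injected group. Fpr1 of LPS replicate 4 sits at 7.65, under its background.

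The contrasts used to choose the receptors moved a sizeable share of the panel. By edgeR's quasi-likelihood test (adjusted p under 0.05, log2 fold change beyond 0.5 in either direction), 16.8% of the 770 genes were upregulated and 5.97% downregulated in LPS versus Untreated mice. In Dox+LPS versus Dox mice the shares were 19.5% and 7.01%. All 3 members were among the upregulated genes of both comparisons, from which nothing is read, since these values chose them. All LPS mice lay above all Untreated mice for 13.6% of the genes, and all Dox+LPS mice above all Dox mice for 18.6%. Hcar2 and Gpr84 were among them in both cases, and Fpr1 only in dox-treated mice. The pattern of Hcar2, under background in all saline-injected and above it in all LPS-injected mice, was found for 7 genes or 0.909% of the panel. The others were the chemokine Ccl5, the cytokine Il1b, the oxysterol enzyme Ch25h, the scavenger receptor Msr1, the metalloreductase Steap4 and the Toll-like receptor Tlr2.

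Other G protein-coupled receptors of myeloid cells did not move as 1 group. Of 49 listed genes 11 were measured besides the members, of which 2 were upregulated and 2 downregulated in each LPS comparison, and 7 did not pass. C5ar1, the receptor of the complement fragment C5a, rose from 39.5 ± 8.70 normalized counts (SD, n = 8) in Untreated mice to 216 ± 27.6 (SD, n = 5) in LPS mice. This was a log2 fold change of 2.45 (standard error 0.13, edgeR adjusted p = 5.1e-13) in LPS mice and 2.72 (standard error 0.16, adjusted p = 3.2e-12) in dox-treated mice. C3ar1, the receptor of C3a, had log2 fold changes of 1.90 and 1.86. P2ry12 and Gpr34, a nucleotide and a lipid receptor of resting microglia, had -2.26 and -2.32 in LPS versus Untreated mice, and -2.54 and -2.77 in Dox+LPS versus Dox mice.

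The fractalkine receptor Cx3cr1 had a log2 fold change of -0.02 in LPS mice, the oxysterol receptor Gpr183 had 0.35, the prostaglandin receptor Ptger3 had -0.03 and the sphingosine 1-phosphate receptor S1pr3 had -0.09. Ccr2, carried by circulating monocytes, and the prostaglandin receptor Ptger4 each exceeded background in 1 of 12 saline-injected and 1 of 11 LPS-injected mice, so no fold is given for them. S1pr4, another sphingosine 1-phosphate receptor, exceeded it in 3 and 6. None of these 7 passed the threshold in either LPS comparison by edgeR, and the lowest adjusted p in LPS mice was 0.127, for Gpr183. Over the 8 receptors above background in most mice, which leaves out Ccr2, Ptger4 and S1pr4, the median was -0.02 in LPS mice and -0.11 in dox-treated mice, beside -0.04 and -0.07 for all 770 genes.

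**Figure D2:**
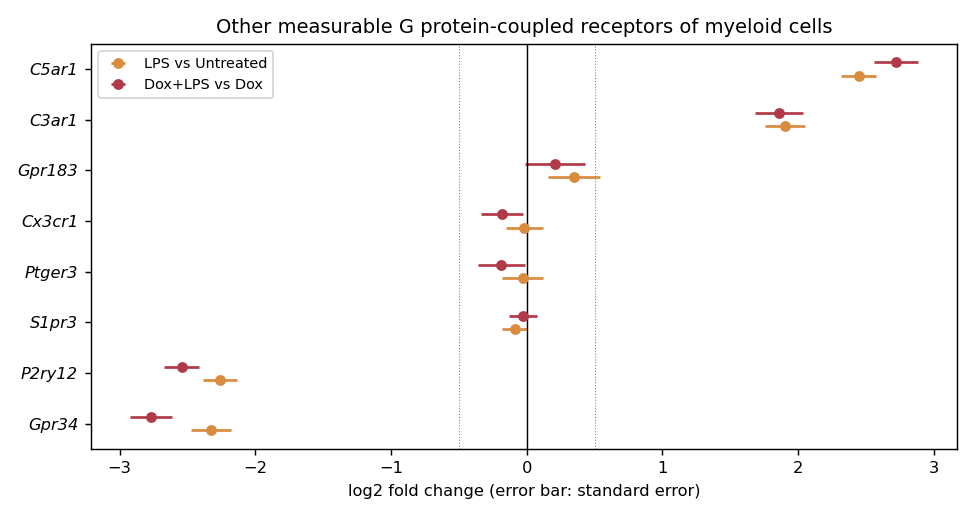
Log2 fold change in LPS versus Untreated mice (orange) and Dox+LPS versus Dox mice (red) of the 8 other listed myeloid receptors above background in more than 50% of the 23 mice, with standard errors and dotted lines at the threshold of 0.5 in either direction. C5ar1 and C3ar1 sit at 1.86 to 2.72, Gpr34 and P2ry12 at -2.26 to -2.77, and the other 4 between the dotted lines.

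Genes downstream of such receptors were measured in part. Of 15 signalling genes of leukocytes, 4 were upregulated and 1 downregulated in LPS mice, and 5 and 1 in dox-treated mice. The phosphatase gene Ptpn6, the exchange factor gene Vav1 and the Src family kinase gene Lyn had log2 fold changes of 1.03, 0.74 and 0.67 in LPS mice, and the kinase gene Akt2 had -0.65. Ncf1, the cytosolic subunit of the phagocyte NADPH oxidase that formyl peptides activate in neutrophils, was the only oxidase gene measured. It rose from 71.9 ± 8.56 (SD, n = 8) to 185 ± 45.7 (SD, n = 5) normalized counts, a log2 fold change of 1.36 (standard error 0.13, edgeR adjusted p = 3.4e-09), and by 1.61 in dox-treated mice. Of 22 NF-kB and cytokine genes, 17 and 18 were upregulated and 0 downregulated, among them Ccl2 (3.51), Bcl2a1a (2.25) and Nfkb2 (1.37) in LPS mice. The mean of Ccl5 in LPS mice was at least 19.3-fold the background of Untreated mice. It was 388 ± 308 normalized counts (SD, n = 5), and the lowest of the 11 LPS-injected mice had 22.0.

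Myeloid cells, which can carry the 3 receptors, were followed through their markers. Among 11 genes of homeostatic microglia, 0 were upregulated, and 5 were downregulated in LPS mice and 6 in dox-treated mice, with the smallest p in LPS mice for P2ry12, Gpr34, Trem2 (-1.08) and Fcrls (-0.96). Olfml3 (-1.02) was the fifth. The pan-microglial receptor gene Csf1r had -0.13 and -0.10 and did not pass. The summed normalized count of the 11 genes was 4641 to 5326 in saline-injected and 2297 to 4113 in LPS-injected mice. All 5 perivascular macrophage genes were upregulated in both comparisons, and their sum ran from 58.2 to 91.3 and from 230.1 to 1125. The means of the scavenger receptors Msr1 and Marco in LPS mice were at least 17.1-fold and 4.98-fold the background of Untreated mice. These means were 343 ± 217 and 100 ± 76.3 normalized counts (SD, n = 5), a wide spread. Marco exceeded background in 10 of 11 LPS-injected mice. Msr1, with a mean of 13.6 in Untreated mice, made up most of the rise of the sum. Ms4a4a had a log2 fold change of 2.30. Cd163 had a smaller one of 0.69, with means near background. These were 21.8 ± 3.14 (SD, n = 8) in Untreated and 35.1 ± 7.67 (SD, n = 5) in LPS mice. Siglec1 exceeded background in 1 of 12 saline-injected and 7 of 11 LPS-injected mice, so no fold is given for it. Part of this list, Msr1 and Marco among it, is also induced in other activated macrophages.

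Of 6 neutrophil genes, 2 were upregulated in LPS mice and 3 in dox-treated mice, and their sum was 75.4 to 115.9 in saline-injected and 113 to 191.8 in LPS-injected mice. The first of these counts fell to 1 without any 1 of LPS replicates 1, 2 and 5 or Untreated replicates 2, 4 and 5. Ly6g, the defining marker, was under background in all 23 mice, with means of 11.3 in Untreated and 13.4 in LPS mice. Il1r2, the decoy receptor of interleukin 1, had a mean of 63.2 ± 27.0 normalized counts (SD, n = 5) in LPS mice. This was at least 3.14-fold the background of Untreated mice. Beside a mean of 12.0 in Untreated mice, it made up most of the rise of the sum. Il1r2 exceeded background in 10 of 11 LPS-injected mice. Trem1 passed the threshold while under background in every mouse, so no fold is given for it. The granulocyte receptor gene Csf3r had a log2 fold change of 0.03, and neither Hdc nor Ceacam3 passed in LPS mice. Of 2 genes listed for monocytes, Cd244 was upregulated and Ccr2 was not, with sums of 11.6 to 35.9 and 23.9 to 47.9. Cd244 exceeded background in 0 of 12 saline-injected and 7 of 11 LPS-injected mice, at least 1.27-fold the background in LPS mice. Whether it marked monocytes here was not tested. The part of these cell types in the receptor counts was not tested.

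For the other cell types, 0 of 6 T cell genes were upregulated, and 1, Cd6, was downregulated in dox-treated mice. The other 5 T cell genes were under background in every mouse, so whether their levels changed could not be read. The neuronal list had 0 of 7 genes past the threshold in LPS mice and 1 downregulated, Tubb3, in dox-treated mice. Of 7 astrocyte genes, 2 rose and 1 fell in LPS mice, and 1 rose and 1 fell in dox-treated mice. Of 8 oligodendrocyte genes 5 were downregulated in each comparison, led by Opalin and Ugt8a. Of 7 endothelial genes, 2 and 3 were upregulated, Pecam1 and Icam2 in both.

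Whether prior dox altered the receptors under LPS was a comparison the choice of members had not used. All 3 had higher means in Dox+LPS than in LPS mice, and none passed the test. Hcar2 had a log2 fold change of 0.29 (standard error 0.13, 95% interval 0.01 to 0.56), with an adjusted p of 0.362 from edgeR. Gpr84 had 0.33 (standard error 0.20, -0.08 to 0.74, edgeR adjusted p = 0.498) and Fpr1 0.56 (standard error 0.30, -0.07 to 1.19, edgeR adjusted p = 0.438). The intervals thus reach a fold of 1.48 for Hcar2, 1.67 for Gpr84 and 2.28 for Fpr1. Exact two-sided permutation tests over the mice gave p = 0.0606 for Hcar2, 0.143 for Gpr84 and 0.212 for Fpr1, where 0.00433 was the smallest p the 462 regroupings allow. For Fpr1, 5 of 6 Dox+LPS mice lay within the range of the LPS mice.

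The differences of Hcar2 and Gpr84 by dox were smaller without LPS replicate 3, the mouse with the least Lcn2 of the LPS group. The log2 fold change of Hcar2 was then 0.19 and that of Gpr84 was 0.20, with exact permutation p of 0.138 and 0.324, and the exact p of Fpr1 was 0.252. For Fpr1 the value fell to 0.25 without Dox+LPS replicate 1. Over the panel, 0% of genes passed in Dox+LPS versus LPS mice by edgeR's quasi-likelihood test, while 102 had an unadjusted p under 0.05. Limma-voom and the likelihood ratio test called 0 genes, DESeq2 called 2 and the fit with 1 RUVg factor called 1, none of them a member. Within the panel, 91 genes had a larger log2 fold change than Hcar2, beside a median of 0.00.

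Without LPS, Hcar2 and Fpr1 were under background in all Untreated and all Dox mice, so no fold by dox is given for them, and their adjusted p was 0.977 and 0.980 by edgeR. Gpr84 exceeded background in 4 of 8 Untreated and 0 of 4 Dox mice, and no fold is given for it either (edgeR adjusted p = 0.980). Exact permutation p values of the normalized counts were 0.119 for Hcar2, 0.879 for Gpr84 and 0.289 for Fpr1. In this comparison 0% of the panel passed. At an unadjusted p under 0.05 there were 41 genes, and 0 were called by DESeq2 or limma-voom. 

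The LPS by dox interaction was 0.69 for Hcar2 (standard error 0.28, 95% interval 0.11 to 1.27, edgeR adjusted p = 0.516), 0.48 for Gpr84 (standard error 0.36, -0.27 to 1.22, adjusted p = 0.716) and 0.30 for Fpr1 (standard error 0.52, -0.77 to 1.37, adjusted p = 0.868). These sizes depend on probe counts of saline-injected mice that were at background, and without Dox+LPS replicate 1 the value of Fpr1 was -0.014. With background subtracted they were 1.77 for Hcar2, 0.80 for Gpr84 and 0.61 for Fpr1, with edgeR adjusted p of 0.562, 0.717 and 0.903. Over the panel 0% passed, an unadjusted p under 0.05 was found for 69 genes, and DESeq2 and limma-voom called 0. The order of the group means was Dox, Untreated, LPS, Dox+LPS for Hcar2 (8.05, 10.7, 65.9 and 80.5) and for Gpr84 (17.4, 19.1, 99.2 and 125). For Fpr1 it was Untreated, Dox, LPS, Dox+LPS (9.94, 12.1, 21.6 and 32.6). In each order, the tests above did not separate neighbours that share the LPS condition, and the first 2 levels of Hcar2 and of Fpr1 are background.

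**Figure D3:**
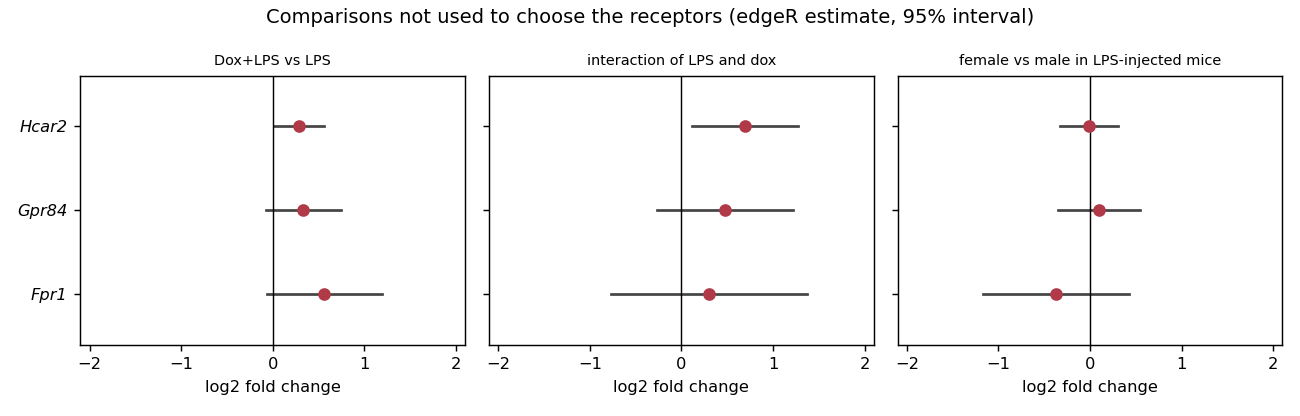
Log2 fold change (point) with its 95% interval (line) from edgeR's quasi-likelihood test for Hcar2, Gpr84 and Fpr1 in Dox+LPS versus LPS, the LPS by dox interaction, and female versus male LPS-injected mice. Fpr1 has the widest interval in each panel. The Hcar2 intervals for Dox+LPS versus LPS (0.01 to 0.56) and the interaction (0.11 to 1.27) lie above 0 before adjustment. Their adjusted p values by edgeR were 0.362 and 0.516. The interaction rests in part on saline-injected mice, in which Hcar2 was under background.

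No member passed the test between females and males within the LPS-injected groups. Among LPS mice, Hcar2 averaged 65.2 normalized counts in 3 males and 66.9 in 2 females, and among Dox+LPS mice 81.8 in 3 males and 79.3 in 3 females. Female versus male log2 fold changes with group in the model were -0.01 for Hcar2 (95% interval -0.32 to 0.30), 0.09 for Gpr84 (-0.35 to 0.54) and -0.37 for Fpr1 (-1.17 to 0.43). Adjusted p values from edgeR were 0.996, 0.948 and 0.901. Permutation within the groups (exact, 200 regroupings) gave p of 0.965, 0.640 and 0.345. The value of Fpr1 was -0.022 without Dox+LPS replicate 1 and -0.80 without LPS replicate 5. By the same fit 0.26% of the panel, 2 genes, differed between the sexes.

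Mice with more Hcar2 tended to have more Gpr84. Over the 11 LPS-injected mice, Pearson's r of the log2 values was 0.81 (permutation p = 0.00228, adjusted over 3 pairs 0.00684) and Spearman's rho 0.69 (permutation p = 0.022, adjusted 0.0622). The relation rested on the 2 LPS mice farthest from the median of Hcar2, replicates 3 and 4, without which r was 0.45 and rho 0.43. Within the 6 Dox+LPS mice, r was 0.43 (exact permutation p = 0.404) and rho 0.31 (exact permutation p = 0.564). No correlation was computed within the 5 LPS mice. With each group's mean subtracted, r over the 11 mice was 0.75. Without LPS replicate 3 alone, r was 0.64.

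The pairs with Fpr1 did not pass after adjustment. Hcar2 with Fpr1 had an r of 0.62 (permutation p = 0.0502, adjusted 0.0754) and a rho of 0.64 (permutation p = 0.0415, adjusted 0.0622). Its r was 0.64 without the 2 farthest mice and 0.65 within Dox+LPS mice (exact permutation p = 0.165). Gpr84 with Fpr1 had an r of 0.44 (permutation p = 0.168, adjusted 0.168) and a rho of 0.47 (permutation p = 0.145, adjusted 0.145), with an r of 0.56 without the 2 farthest mice. Within Dox+LPS mice that r was 0.15 (exact permutation p = 0.772). With group means subtracted, r was 0.51 for Hcar2 with Fpr1 and 0.30 for Gpr84 with Fpr1. Whether the 3 correlations differ from each other was not tested.

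**Figure D4:**
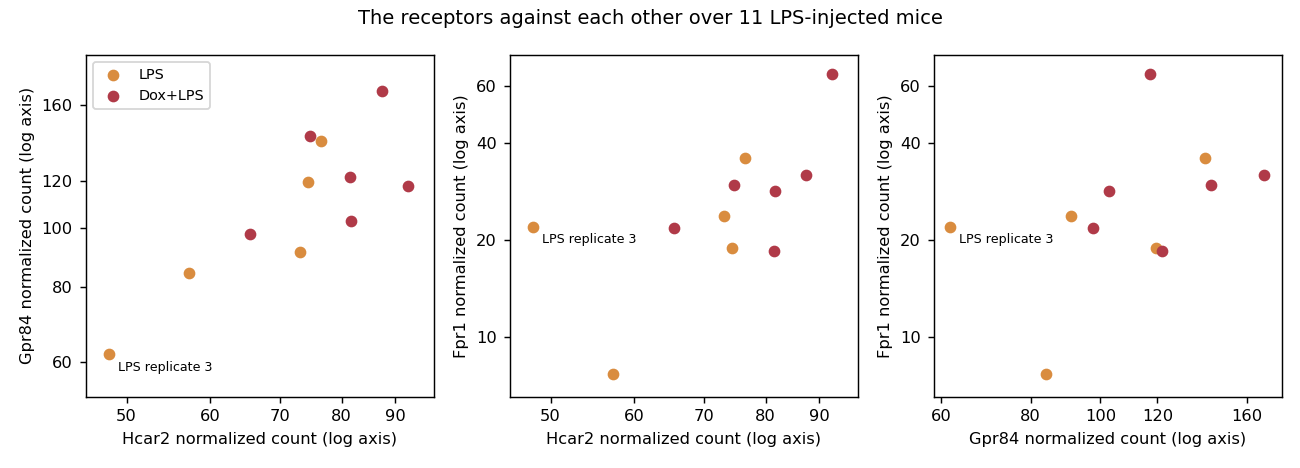
Normalized counts on log axes of each pair of receptors in the 11 LPS-injected mice, LPS mice in orange and Dox+LPS mice in red. LPS replicate 3 is lowest for Hcar2 (48.1) and Gpr84 (61.7) but not for Fpr1 (22.0), where replicate 4 is lowest at 7.65.

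After each group's mean was subtracted, the panel genes closest to each receptor over the 11 mice were found among 600 genes (601 for Fpr1) above background in all of them. These correlations are descriptive, and the points share libraries and scaling. For Hcar2 they were Relb, a subunit of NF-kB (r = 0.92), and the Toll-like receptor Tlr2 (0.83). The third was Nfkbie, an inhibitor of NF-kB (0.83), beside a median of 0.01 over the genes compared. For Gpr84 they were Lacc1, an enzyme of macrophages (0.89), Tlr2 (0.79) and Nfkbie (0.79), beside -0.05. Without LPS replicate 3, Relb and Lacc1 stood at 0.86 and 0.83 and Nfkbie at 0.90 and 0.82, while Tlr2 fell to 0.66 and 0.63. Lcn2 ranked number 31 for Hcar2 with an r of 0.66, which dropped to 0.28 without that mouse, and number 38 for Gpr84 with 0.52, which dropped to 0.07.

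The genes closest to Fpr1 were the monocyte chemokine Ccl2 (r = 0.87), the secreted phospholipase Pla2g5 (0.85) and Ttr, the thyroxine carrier made in quantity by the choroid plexus (0.84), beside a median of 0.09. Without Dox+LPS replicate 1, which held the most Fpr1, the r of Ttr was 0.86, of Ccl2 0.82 and of Pla2g5 0.77. Without LPS replicate 3 the closest gene was Steap4, a metalloreductase, with an r of 0.92, and Ccl2, Pla2g5 and Ttr ranked numbers 3, 6 and 8. Ttr varied widely within every group. It was 214.9, 2020, 705, 82.2 and 2024 normalized counts in LPS replicates 1 to 5, and replicate 4 was the lowest for Ttr and for Fpr1. LPS replicate 4 was also the lowest of the LPS mice for Ccl2 (112.8) and Pla2g5 (28.7). The genes closest to Fpr1 were not sought without that mouse. In Dox+LPS mice Ttr ranged from 366 to 1988 and in saline-injected mice from 50.02 to 2746. The part of choroid plexus tissue in the Fpr1 count was not tested.

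The authors' deposited signal values of the same receptors are described beside the counts and are not read as measurements of single mice. They lay closer together within a group than the normalized counts did, except for Fpr1 in Dox mice, where the coefficient of variation was 14.8% in counts and 17.6% in signal values. Within a group they did not follow the counts of each mouse closely. For Lcn2 in the 8 Untreated mice, counts of 14 to 755 stood beside signals of 107.6 to 141.3. The group mean was 126.7 normalized counts. For Hcar2 in Dox mice, the coefficient of variation was 31.9% in normalized counts and 2.09% in signal values. How the signal values came to lie so close within groups was not tested. For Fpr1 in LPS mice, the coefficient of variation was 47.0% in normalized counts and 12.3% in signal values. In LPS replicate 4, 8 counts became a signal of 22.0, and in Dox+LPS replicate 1, 63 counts became 37.1. With the signal values all 5 LPS mice (18.7 to 26.1) lay above all 8 Untreated mice (7.67 to 11.4) for Fpr1. The counts of these groups overlapped, and no separation of mice is read from the signal values. For Hcar2 in LPS mice the coefficients were 19.0% and 7.63%, and for Gpr84 30.8% and 8.61%.

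**Figure D5:**
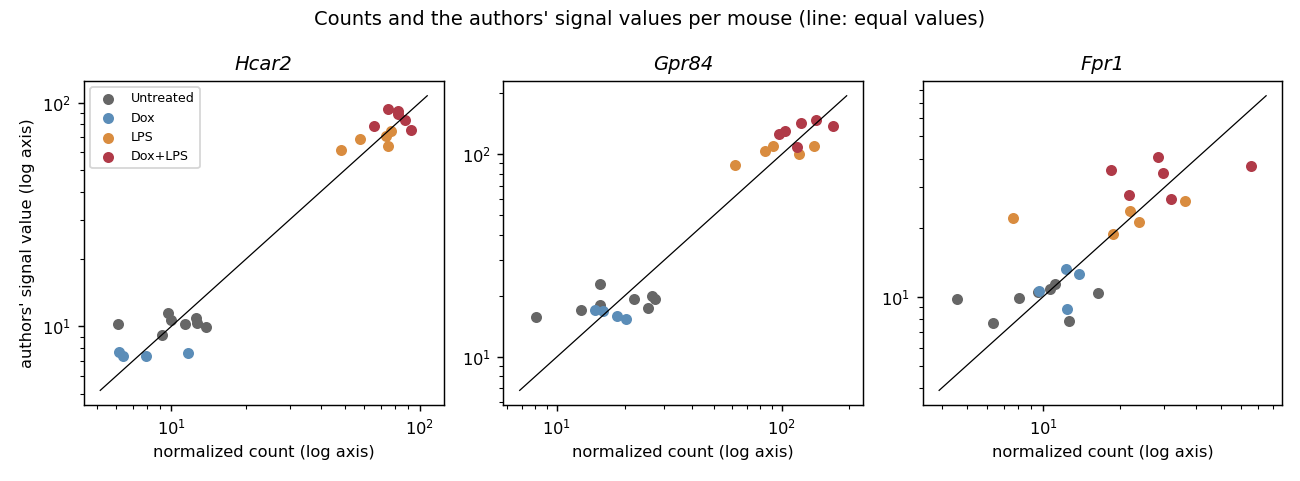
Authors' signal value against normalized count per mouse on log axes for each receptor, with a line of equal values and 1 colour per group. Signal values spread less within a group than counts except for Fpr1 in Dox mice. The LPS mouse with a normalized count of 7.65 for Fpr1 has a signal of 22.0.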

How the data were processed

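Cortical RNA of 23 mice was hybridized to 784 probes (757 endogenous, 13 housekeeping, 6 positive and 8 negative controls). The authors deposited the instrument's counts, recorded here as estimated counts because header rows in the same columns hold decimals. The probe rows hold whole numbers and were fitted as counts. The authors also deposited signal values, normalized by the upper quartile and RUVg. A genome build is not given in the sources used here. In the count table, 1 column matched no sample and was not used. Groups came from the labels, and replicate numbers only name mice.

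Upper quartile scaling was applied to the 770 panel genes, whose counts were fitted over all 4 groups with edgeR 4.0.16's quasi-likelihood test in R 4.3.3 and Benjamini-Hochberg adjustment, after a trial on simulated data. Correlations and two-sided permutation tests used log2(normalized count + 1), with 100000 draws for 11 mice. Lower-limit folds divide a group's mean by that of the saline-injected group, in which mice under background entered at background. Other settings were DESeq2 1.42.0, limma-voom (limma 3.58.1), the likelihood ratio test, scaling by TMM, RLE, housekeeping genes or positive controls, 1 RUVg factor, a low-count filter, background subtraction, sex as a covariate, other backgrounds and each mouse left out.

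Named genes were the members, each measured myeloid G protein-coupled receptor, up to 4 genes per other list with the smallest p in LPS versus Untreated mice, defining markers, the 3 genes most like each member, and Lcn2. The 6 genes sharing the pattern of Hcar2 were named with their values in view. Members and the 13 lists were chosen with earlier results of these data known. Of the list genes, 2 are not reported here and enter no list count.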

Additional observations from a re-analysis of the deposited data

Results flagged for a closer look

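Of 12 sets of values, 3 receptors in 4 groups, 1 held a mouse far from the others. Dox+LPS replicate 1 had 65.5 normalized counts of Fpr1, while the rest of its group, 5 mice, had 18.4 to 31.8, and the gap took a share of 0.715 of the group's range. The share was taken on counts without a log. By the rule used, chance alone sets a mouse apart in this way in about 1 of 20 sets if values are normally distributed. Whether these counts are so distributed was not tested. The same mouse had the highest Lcn2 (17611), Ccl2 (512) and Ttr (1988) of the Dox+LPS group. The part of these in its Fpr1 count was not tested.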

How the results depend on the processing

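For the comparisons of Dox+LPS with LPS, Dox with Untreated and the interaction, no alternative brought a receptor past the threshold, and the lowest adjusted p was 0.245, for Fpr1 in Dox+LPS versus LPS mice. The range over the mice left out was 0.19 to 0.35 for Hcar2, 0.20 to 0.49 for Gpr84 and 0.25 to 0.84 for Fpr1 in that comparison, and -0.0141 to 0.57 for the interaction of Fpr1, which turned its sign without Dox+LPS replicate 1. For Hcar2 the lower-limit fold with a background of the mean plus 3 SD was 2.59 in LPS mice and 2.88 in dox-treated mice, and with housekeeping gene scaling it was 4.14 in dox-treated mice. Under the stricter background that of Gpr84 was 4.47 in dox-treated mice. Leaving out each mouse gave 3.14 to 3.495 and 3.45 to 3.87 for Hcar2, 4.00 to 4.88 and 5.29 to 6.02 for Gpr84, and 0.90 to 1.25 and 1.18 to 1.61 for Fpr1.

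The log2 fold change of Hcar2 between the sexes, near 0, changed sign with TMM scaling (0.0166), housekeeping gene scaling (0.0579), positive control scaling (0.0471), DESeq2 (0.015), limma-voom (0.000598) and the low-count filter (0.000508), and ran from -0.0893 to 0.0448 over mice left out. That of Gpr84 ran from -0.0796 to 0.25. The correlation of Hcar2 with Gpr84 ranged from 0.64, without LPS replicate 3, to 0.86, and that of Hcar2 with Fpr1 from 0.51 to 0.83, also without LPS replicate 3. The counts of myeloid receptors past the threshold stayed at 4 in each LPS comparison under each alternative run. Among the cell type markers, the neutrophil count was 1 in both comparisons with the low-count filter and in LPS mice with DESeq2, the neuronal count was 1 in LPS mice without LPS replicate 3 and 0 in dox-treated mice with housekeeping gene scaling, and the oligodendrocyte count was 3 in both comparisons with positive control scaling and in dox-treated mice with housekeeping gene scaling. Comparisons with the authors' signal values, and those without LPS replicate 3 or Dox+LPS replicate 1 in exact tests and closest genes, were chosen after seeing the data. No paired analysis was possible because the labels give no replicate numbers shared between groups. The depth of the counts limits what can be said of Fpr1, whose mean in LPS mice was near background.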
